A study of Mus musculus with 30 samples.

Results

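Cardiac and skeletal muscle are the striated muscles of the mouse, and a set of 80 genes whose RNA was higher in both of them than in 10 other adult tissues is described here. The members were taken from the 25030 probes of the deposited value table, which gives a log10 level per probe and array. The tissue value was the mean of its 2 arrays. The gap of a probe was the lower of the heart and muscle values minus the highest value among brain cortex, cerebellum, lung, liver, kidney, bladder, stomach, small intestine, large intestine and fat. Bone, skin and eyes were kept out of the rule. The 80 probes with the largest gap that carry a symbol in the study's own probe lists were taken, after leaving out Ankrd23, Msc and Aes. Of the 25030 probes, 5622 carry such a symbol, so a gene without one could not enter. All 80 probes name different genes. Of the symbols, 60 are current in the RefSeq gene table (GRCm38.p6) and 20 are older names. Most of the older names used below are replaced by the current symbol, in part with the older one beside it.

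The tissues came from adult male C57BL/6 mice that carried no allele or treatment by the labels, which give an age of 28 weeks. Each of the 15 tissues had 2 two-colour Agilent arrays, 30 in all, with the RNA of the tissue in Cy3 and one common reference in Cy5, RNA of 11 cultured cell lines (a muscle myoblast line among them) mixed with embryonic stem cell RNA. The replicates of most tissues came from different animals, while the series description gives bone and fat a single replication. Their 2 arrays may therefore hold RNA of the same animal, and p-values there need not measure a spread between animals. The standard error (SE) and p-value of a gene rest on a spread pooled over all 15 tissues. They therefore also take in tissues outside the pair compared. The labels do not say which skeletal muscle or which bone was taken. Levels are given as the log2 ratio of tissue to reference after loess normalisation, so that a value of 0 equals the reference and differences are in log2 units. A ratio depends on the reference as well as on the tissue, and ratios of different genes do not rank their RNA. The median signal of an array was between 85.7 and 175 scanner units in Cy3. In whole tissue, fewer cells of a type and less RNA per cell cannot be told apart.

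Both striated muscles shorten by sliding actin and myosin filaments in sarcomeres, which are anchored at Z-discs and triggered by calcium after the membrane is excited. Both draw on dense mitochondria, on fatty acids and glycogen, and on creatine and adenine nucleotide pools that buffer ATP during work. They differ in the calcium trigger: in skeletal muscle the L-type channel Cacna1s acts as a voltage sensor, whereas heart muscle depends on calcium entering through a related channel. MEF2 proteins, the E-box binding factors of the MyoD family (skeletal muscle only) and TEAD proteins, which bind the MCAT element, are well known regulators of muscle promoters.

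By annotation, 70 members are protein-coding, 9 are long noncoding RNAs and 1 is a transcribed pseudogene, and they lie on 19 chromosomes. By function they were sorted by hand, after their values had been seen, into muscle structure and regulation (10 genes), the respiratory chain and ubiquinone synthesis (12), other mitochondrial proteins (13), enzymes of nucleotides and sugar phosphates, with related ones (6), ubiquitin and the proteasome (7), noncoding RNAs with the pseudogene (10) and other protein-coding genes (22). The first of these groups, which also holds regulators, is shortened to muscle structure below. A further shared trait is the origin of the names. Symbols of one RIKEN clone series, such as 2310002L09Rik, come from a cDNA library of adult tongue, an organ that is largely striated muscle. They make up 11 of the 80 members (13.8%) and 148 of the 5622 probes with a symbol (2.63%). Among symbols of RIKEN clones only, the shares were 11 of 28 (39.3%) and 148 of 2725 (5.43%).

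RefSeq promoter windows (GRCm38.p6, 250 bases before to 50 after a start) were found for 68 of the 80 genes, 81 windows in all, and were searched on both strands. The MEF2 site was in 4 of the 81 windows (4.94%) and in 183 of all 32851 mouse windows (0.557%). The MCAT element CATTCC was in 14 (17.3%, against 14.7%), the E-box CANNTG in 59 (72.8%, against 72.3%), the CArG box in 1 (1.23%, against 1.63%), CACCC in 50 (61.7%, against 57.5%), GATAA in 13 (16.0%, against 25.4%) and TATAAA in 7 (8.64%, against 13.6%). The ERR site TCAAGGTCA was in none of the 81 and in 139 of all windows (0.423%). Among the 13 windows of the muscle structure genes, 2 held a MEF2 site, 4 an MCAT element and 12 an E-box. Among the 25 windows of the mitochondrial genes, 0 held a MEF2 site, 4 an MCAT element and 14 an E-box. These are matches of letters, and some motifs overlap. The 140 bases before the start are shown for the 4 genes with a MEF2 site, for Cacna1s and for Cavin4, the member with the largest gap. Capitals mark the MEF2 site, and in Dusp27 also CATTCC. In Cacna1s they mark GGAATG, the MCAT element read on the other strand, and in Cavin4 they mark TATAAA.
Cavin4, chr4:48663374-48663513, plus strand: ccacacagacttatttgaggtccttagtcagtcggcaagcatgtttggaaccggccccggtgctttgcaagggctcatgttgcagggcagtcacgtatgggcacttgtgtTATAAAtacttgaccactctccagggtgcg
Cacna1s, chr1:136052671-136052810, plus strand: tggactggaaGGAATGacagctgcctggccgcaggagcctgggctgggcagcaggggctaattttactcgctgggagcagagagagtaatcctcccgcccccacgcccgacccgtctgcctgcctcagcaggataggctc
Dusp27, chr1:166127899-166128038, minus strand: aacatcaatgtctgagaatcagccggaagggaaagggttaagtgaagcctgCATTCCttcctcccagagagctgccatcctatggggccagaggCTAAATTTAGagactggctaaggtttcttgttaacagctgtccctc
Speg (first of 4 starts), chr1:75375157-75375296, plus strand: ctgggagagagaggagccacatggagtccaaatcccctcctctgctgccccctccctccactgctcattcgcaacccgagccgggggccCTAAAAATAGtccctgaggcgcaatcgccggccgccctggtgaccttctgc
Ankrd40, chr11:94327861-94328000, plus strand: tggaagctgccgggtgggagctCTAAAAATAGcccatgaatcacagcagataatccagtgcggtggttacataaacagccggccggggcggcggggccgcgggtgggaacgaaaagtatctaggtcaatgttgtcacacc
2310020H05Rik (noncoding), chr13:99087922-99088061, minus strand: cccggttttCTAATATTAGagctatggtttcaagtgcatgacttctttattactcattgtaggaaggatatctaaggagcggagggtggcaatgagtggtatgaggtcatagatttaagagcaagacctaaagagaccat
The MEF2 site began 46 bases before the start in Dusp27, 51 in Speg, 118 in Ankrd40 and 131 in 2310020H05Rik. CATTCC of Dusp27 began 89 bases before the start, GGAATG of Cacna1s 130 and TATAAA of Cavin4 30.

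The members were chosen by the gap, so its values describe the set and are not tested. On the log2 scale of the deposited level it ran from 7.44 for Cavin4 (listed as 2310039E09Rik) to 0.898, with a median of 1.25. It was over 2 in 14 genes and over 1 in 64. Heart was the lower of the pair in 53 genes and muscle in 27. The last genes inside the threshold were Qrsl1 (0.907), Dld (0.898) and Atp5c1 (0.898), and the first outside it were 2810416G20Rik (0.897), Mapkapk2 (0.890) and Pdpr (0.878), so the set has no natural edge. The next highest tissue was most often kidney (15 genes), fat (11), brain cortex (10) or liver (10). It was kidney for 9 of the 12 genes of the respiratory chain and ubiquinone and for 0 of the 10 genes of muscle structure.

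**Figure D1:**
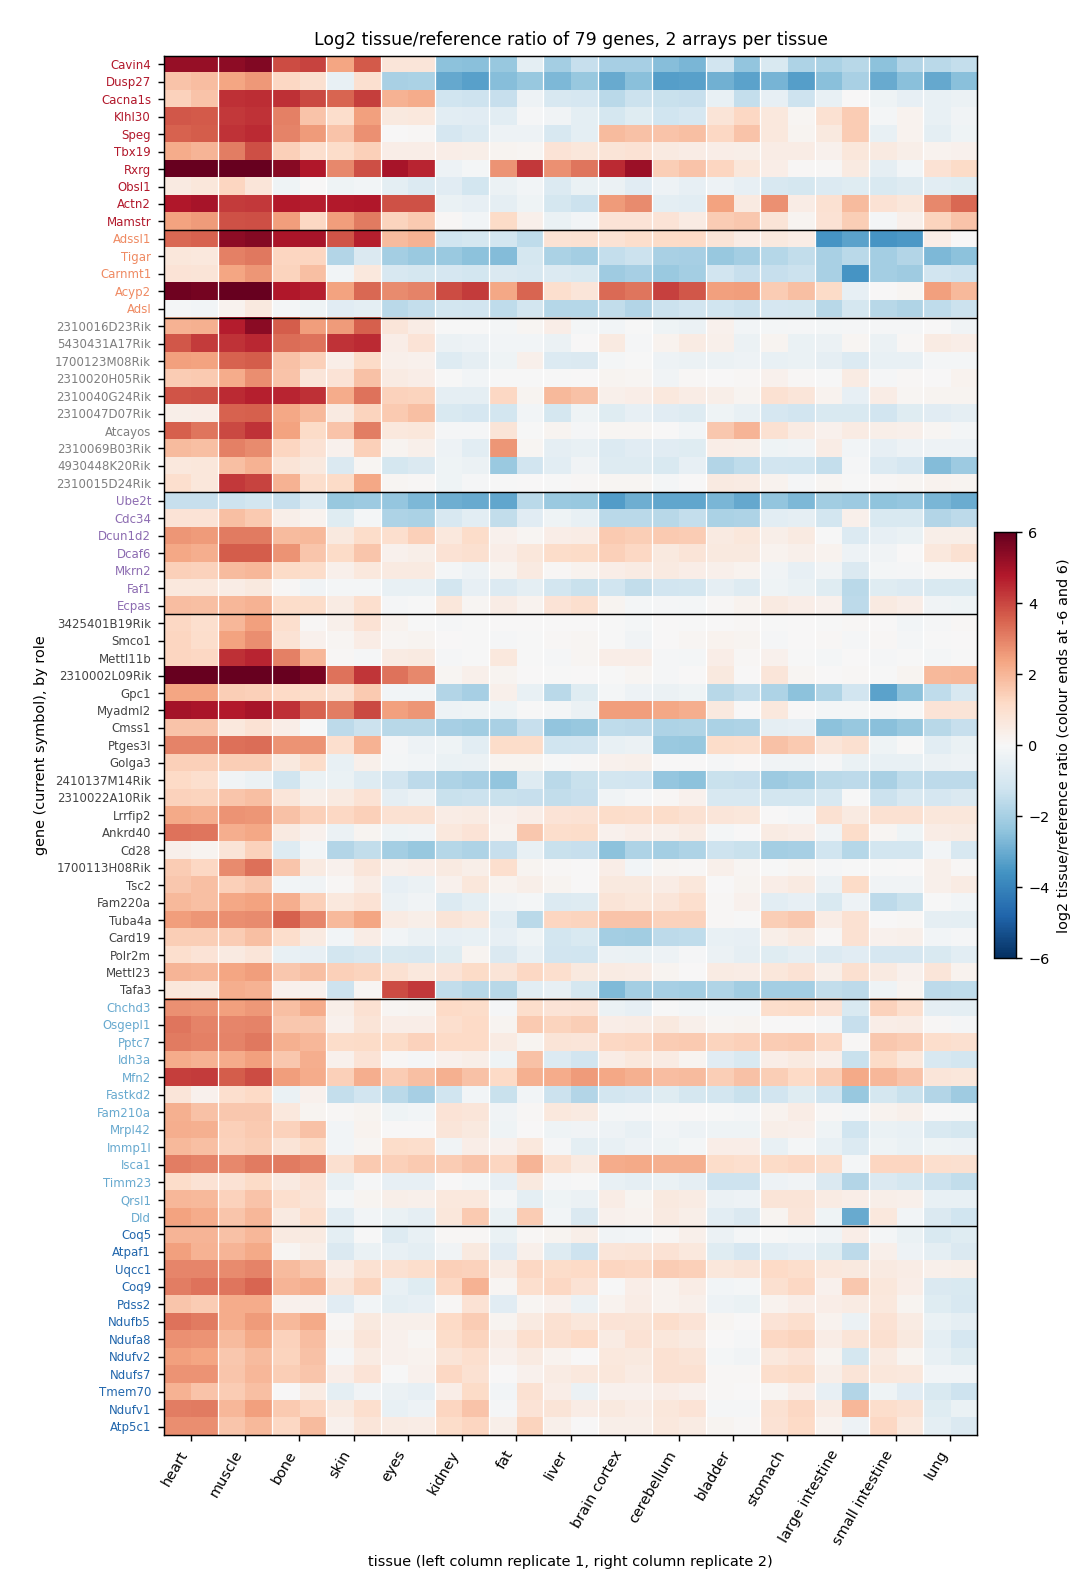
Log2 tissue/reference ratio of 79 of the 80 genes (rows, by role, each role ordered by gap) on the 30 arrays (columns, 2 per tissue); red is above and blue below the reference, and the colour scale ends at -6 and 6. Most genes of muscle structure are red in bone and skin as well, while the respiratory genes at the bottom are pale outside heart, muscle and bone, and Tafa3 is highest in eyes.

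Cavin4, a coat protein of the caveolae of striated muscle, had log2 ratios of 5.22 and 5.24 in heart and 5.39 and 5.53 in muscle, against -1.37 for the mean of stomach, the next tissue. Dusp27, a phosphatase relative of the sarcomere, was at 1.73 and 1.84 in heart and 2.35 and 2.60 in muscle, and its next tissue, large intestine, was at -2.23. For both genes the heart and muscle arrays lay close together and far above the 10 tissues.

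The noncoding RNA 5430431A17Rik was at 3.72 and 4.19 in heart and 4.34 and 4.52 in muscle, and at 0.46 in lung, the next tissue. The noncoding RNA 1700123M08Rik was at 2.47 and 2.42 in heart and 3.53 and 3.64 in muscle, against 0.01 in fat. Klhl30, a kelch-like protein, was at 3.71 and 3.67 in heart and 4.26 and 4.31 in muscle, with large intestine next at 1.20. In these 3 genes every muscle array was above every heart array.

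Other members were not silent elsewhere. Rxrg, a retinoid X receptor, was at 6.45 and 6.28 in heart and 6.65 and 6.76 in muscle, but also at 4.48 and 5.12 in brain cortex, 2.71 and 4.25 in fat and 2.75 and 3.19 in liver. Actn2, the alpha-actinin that crosslinks actin at the Z-disc, was at 4.82 and 4.93 in heart and 4.18 and 4.24 in muscle, with 2.90 and 3.43 in lung and 2.55 and 2.83 in brain cortex. Its arrays disagreed in stomach (2.72 and 0.46) and bladder (2.41 and 0.53). Mfn2, which fuses outer mitochondrial membranes, was at 4.14 and 4.19 in heart and 3.62 and 3.90 in muscle, and no array of the other 13 tissues was below 0.69. The uncharacterised gene 2310002L09Rik was at 6.38 and 6.44 in heart and 6.39 and 6.55 in muscle, and lung, at 1.97 and 1.99, was the only one of the 10 tissues with both arrays above 1.

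A tissue ratio needs a measurable reference. The Cy5 signal of 69 members was well above background on all 30 arrays, as it was for 70.1% of all tested probes. It was so on no array for 3425401B19Rik and 2310015D24Rik and on some arrays for 9 members, and the size of their ratios rests on a dim reference. Although one reference RNA was on all arrays, the Cy5 signal of some members moved with the tissue. Its SD over the 30 arrays had a median of 0.12 log2 units over the members and 0.11 over all probes, but was over 0.5 in 6 members (5.50% of all probes). It was 1.69 for Actn2, 0.92 for Cacna1s and 0.86 for 2310002L09Rik. The Cy5 level of Actn2 was 12.7 in heart, 12.4 in muscle, 11.3 in bone, 11.3 in skin and 9.40 in eyes, and at most 8.82 in the 10 tissues. That of Cacna1s was 11.2 in muscle, 9.57 in bone and 7.95 in heart. Tissue differences of such genes on the ratio can be smaller than on the level of Cy3 alone, which is given beside some of them. Between heart and muscle 2310002L09Rik differed by -0.06 on the ratio and by -0.99 on the Cy3 level. The cause was not tested. Some members have a second probe of the same symbol outside the value table. In 4 of them (Cmss1, Mettl23, Carnmt1 and Atcayos) the second probe repeated the pattern, with a gap between 0.93 and 1.90 on the ratio scale. For Adsl the gap of the second probe was 0.05, against 0.90 for the member probe.

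Heart and muscle were then compared with each other. The rule took the lower of both levels, so it used the values compared here, and the counts of calls among the members are not independent of it. By limma over all 30 arrays (call: Benjamini-Hochberg adjusted p under 0.05 and a log2 difference of at least 1), 18 members were higher in muscle and 1 was higher in heart. Of all 21026 tested probes, 6.02% were called higher in muscle and 9.17% higher in heart. The median difference, heart minus muscle, was -0.35 over the members and 0.04 over all probes, and 28 members were above 0. With median centring the members' median was -0.63 and 12 were above 0. The arrays of heart and muscle did not overlap in 70 of the 80 members, and in 73.3% of all probes. Heart and muscle were scanned on different days and hybridised on different slides, so batch and tissue cannot be told apart. In muscle 71 of the 80 members were higher in replicate 2 (median 0.16, against 51.5% of all probes), and in heart 55 were lower in replicate 2 (median -0.05). The markers followed the labels. Tnnt2 and Fhl2, the 2 of 12 cardiac markers with a symbol, were higher in heart, and 6 of the 7 skeletal markers tested were higher in muscle (Cacna1s, itself a member, with Mstn, Actn3, Mybph, Myl1 and Myog). Of the markers of other cell types tested, those higher in heart were 2 of 2 for adipocytes and 1 of 4 for blood, and those higher in muscle were 1 of 4 for blood and 1 of 2 for Schwann cells, with 0 calls among 3 for smooth muscle, 4 for endothelium and 7 for fibroblasts. Their part in the differences was not tested.

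**Figure D2:**
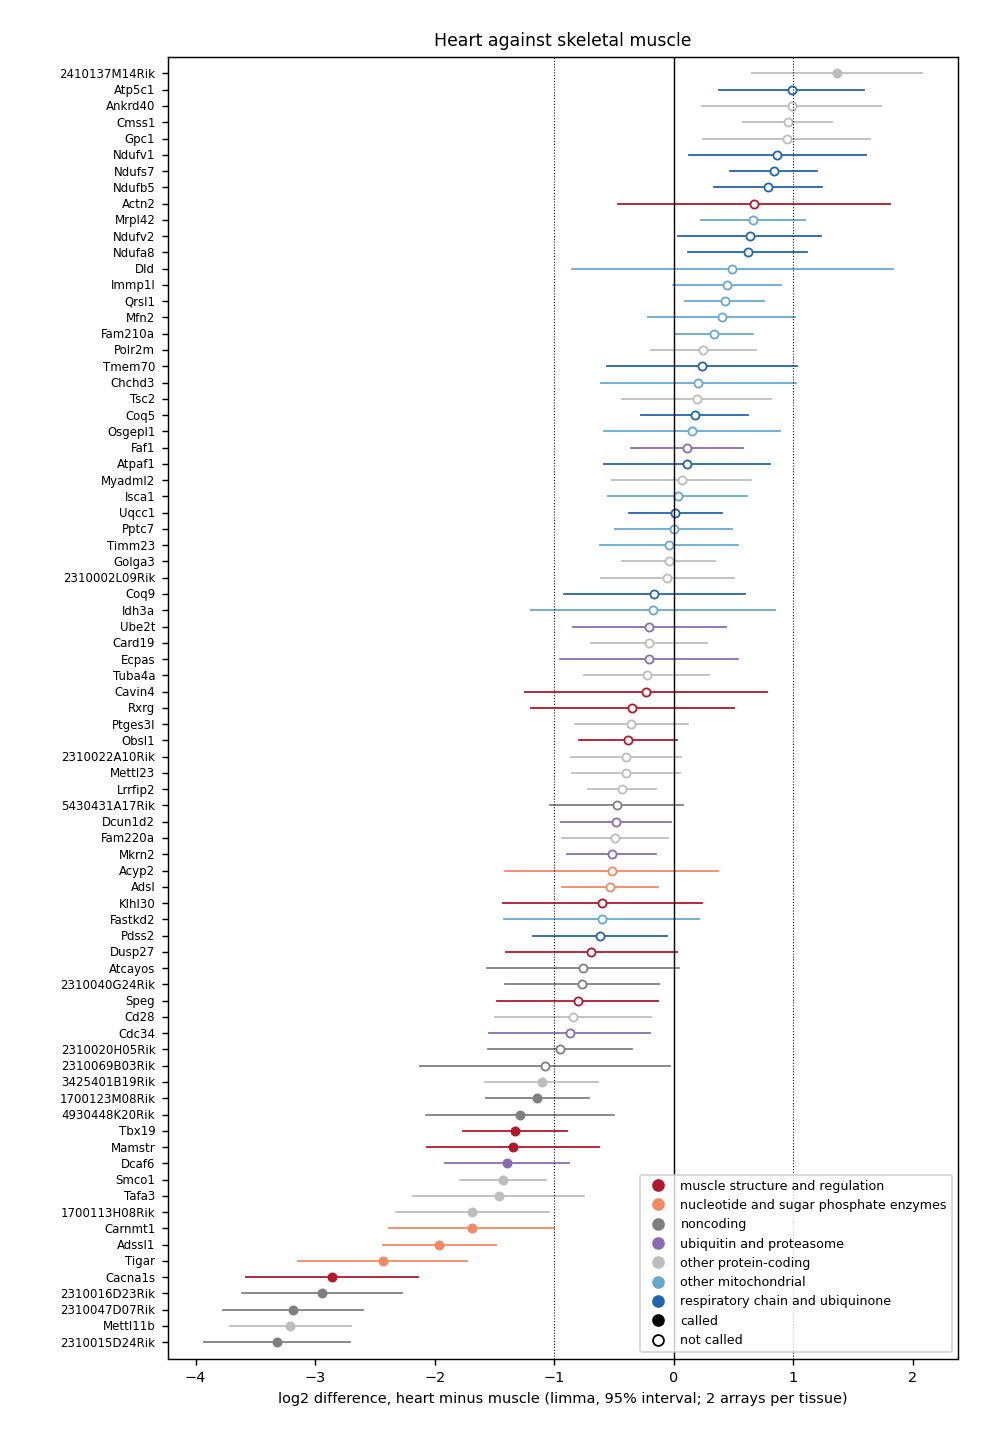
Log2 difference, heart minus muscle, of 79 of the 80 genes (limma, points with 95% intervals, 2 arrays per tissue), coloured by role; filled points were called and dotted lines mark -1 and 1. Of the filled points, 17 lie to the left and 1 to the right, and 10 of the 12 respiratory genes lie above 0 (4 with median centring).

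Of the 6 enzymes grouped by hand as those of nucleotides, sugar phosphates and related compounds 4 were called, all higher in muscle. Adssl1, the muscle form of the enzyme that commits IMP to AMP, was at 3.43 and 3.55 in heart and 5.37 and 5.53 in muscle, a difference of -1.96 (SE 0.22, adjusted p = 2.7e-06). Tigar (listed as 9630033F20Rik), a phosphatase that lowers fructose 2,6-bisphosphate, was at 0.69 and 0.63 in heart and 3.02 and 3.17 in muscle, a difference of -2.43 (SE 0.34, adjusted p = 2.3e-05). Carnmt1 (2410127L17Rik), which methylates carnosine to anserine, differed by -1.69 (SE 0.33, adjusted p = 0.00077), and its second probe by -1.71. Adsl, the next step of AMP synthesis, and Acyp2, the muscle type acylphosphatase, were not called (differences of -0.53 and -0.52).

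Of the muscle structure genes 3 of 10 were called, all higher in muscle. Cacna1s was at 1.38 and 1.69 in heart and 4.37 and 4.41 in muscle, a difference of -2.86 (SE 0.34, adjusted p = 4.6e-06), and of -6.15 (SE 0.41, adjusted p = 2.1e-09) on the Cy3 level alone. Both heart arrays were nevertheless well above background and above the next tissue, large intestine, at -0.19. Mamstr (5430432N15Rik), a coactivator of MEF2, differed by -1.35 (SE 0.34, adjusted p = 0.0066), and Tbx19, a T-box factor best known from the pituitary, by -1.33 (SE 0.21, adjusted p = 8.8e-05). Not called were Cavin4 (-0.23), Dusp27 (-0.69), Klhl30 (-0.60), Speg, a kinase of striated muscle (-0.80), Rxrg (-0.35), Obsl1, a cytoskeletal adaptor related to obscurin (-0.38), and Actn2 (0.67, adjusted p = 0.47), the one gene of the group with a higher mean in heart. The SE of Actn2 (0.54) is pooled over all tissues, among them stomach and bladder, where its arrays disagreed. With median centring in place of loess Actn2 was at -0.04. On the Cy3 level alone 6 of the 10 were called higher in muscle, among them Speg (-1.78, adjusted p = 0.00038) and Dusp27 (-1.04, adjusted p = 0.030), and Actn2 was at 1.06 (adjusted p = 0.30).

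Noncoding genes made up 5 of the calls, out of 10, and all 10 had a higher mean in muscle. The largest difference of any member on the ratio scale was that of 2310015D24Rik, at 0.99 and 0.67 in heart and 4.23 and 4.06 in muscle (-3.32, SE 0.29, adjusted p = 9.9e-08). Its reference was not well above background on any array. Its difference on the Cy3 level alone was -3.62, against -6.15 for Cacna1s. On the ratio 2310015D24Rik was followed among noncoding genes by 2310047D07Rik (-3.18) and 2310016D23Rik, at 2.11 and 2.15 in heart and 4.71 and 5.43 in muscle (-2.94, SE 0.32, adjusted p = 1.5e-06). The pseudogene 4930448K20Rik (-1.29) and 1700123M08Rik (-1.14) completed the group (4930448K20Rik was singled out after its values were seen). On the deposited level the difference of 2310016D23Rik was smaller, -1.35, and missed the threshold. That of 1700123M08Rik was -1.02 there and -0.98 with median centring, and was not called in either. On the Cy3 level alone 8 of the 10 were called, among them 5430431A17Rik (-1.07, adjusted p = 0.034).

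Mettl11b (listed as Gm207), a methyltransferase of protein N-termini, had the next largest difference of ratios, with 1.27 and 1.26 in heart and 4.37 and 4.58 in muscle (-3.21, SE 0.24, adjusted p = 1.4e-08). On the deposited level it was -0.99 and missed the threshold. Smco1 (2310010M20Rik), a membrane protein with a coiled coil, differed by -1.43 (SE 0.17, adjusted p = 4.9e-06), and 3425401B19Rik by -1.11 (SE 0.23, adjusted p = 0.0011). With median centring both fell short of the size of a call (-0.98 and -0.60). The remaining calls in this direction, named after their values were seen, were 1700113H08Rik (-1.68), Tafa3 (-1.47) and Dcaf6 (-1.40), an adaptor of a ubiquitin ligase and the one call among the 7 ubiquitin and proteasome genes. The single call in the other direction was the uncharacterised gene 2410137M14Rik, at 1.18 and 1.00 in heart and -0.22 and -0.33 in muscle (1.37, SE 0.34, adjusted p = 0.0056). It was lost without heart replicate 1 (1.28) and with the slide as a random block (1.26).

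Of the 25 mitochondrial members 0 were called in either direction (15.2% of all probes were), a count that describes the chosen genes, since the rule used both levels. Complex I was represented by 5 subunits, and each had a higher mean in heart. Ndufs7 was at 2.67 and 2.68 in heart and 1.68 and 2.00 in muscle, a difference of 0.84 (SE 0.17, adjusted p = 0.0012) that stayed under the size of a call. Ndufb5 (0.79, adjusted p = 0.011) and Atp5c1, the gamma subunit of ATP synthase (0.99, adjusted p = 0.017), also passed on p alone, and Ndufv1 (0.87, adjusted p = 0.088), Ndufv2 (0.63, adjusted p = 0.13) and Ndufa8 (0.62, adjusted p = 0.067) did not. Direction and size depended on the scaling, since with median centring Ndufs7 was at 0.00, Ndufb5 at 0.17 and Atp5c1 at 0.09, while Ndufa8 (-0.11) and Ndufv2 (-0.12) changed sign.

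The 5 members with the smallest differences were Pptc7, a mitochondrial phosphatase (-0.00, 95% interval -0.49 to 0.49), Uqcc1 (listed as Uqcc), an assembly factor of complex III (0.01), Isca1, which helps to build iron-sulphur clusters (0.03), Timm23, the channel of protein import (-0.04), and Golga3, a Golgi protein (-0.04). Pptc7 was at 3.12 and 3.01 in heart and 2.98 and 3.15 in muscle, so that its arrays overlapped. With median centring Pptc7 was at -0.27, Uqcc1 at -0.39 and Isca1 at -0.52, so that their small differences depended on the scaling. The ubiquinone genes Coq5 (0.18), Coq9 (-0.16) and Pdss2 (-0.62), the ATP synthase assembly factors Atpaf1 (0.11) and Tmem70 (0.24), the citric acid cycle enzymes Idh3a (-0.18) and Dld (0.49), the cristae protein Chchd3 (0.20), Mfn2 (0.40) and the ribosomal protein Mrpl42 (listed as D10Ertd322e; 0.66, adjusted p = 0.024) were not called either. With median centring Mrpl42 was at -0.10, Dld at -0.09 and Chchd3 at -0.43. Of the 12 respiratory genes 4 were then above 0, against 10, and of the 13 other mitochondrial genes 3, against 9.

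The other genes of these pathways were counted over all probes with a symbol. A gap above 0, that is, both striated muscles above all 10 tissues, holds for every member by the rule, so members are left out of these counts. It held for 383 of the other 5542 probes with a symbol (6.91%), and for 1505 of the other 24950 probes of any kind (6.03%). Of 68 oxidative phosphorylation probes that are not members, 32 (47.1%) had a gap above 0. The counts were 5 of 10 for the citric acid cycle, 18 of 36 for the mitochondrial ribosome, 8 of 19 for mitochondrial dynamics and import, 3 of 8 for the sarcomere and intermediate filaments, 1 of 4 for excitation-contraction coupling, 0 of 1 for muscle energy supply and 3 of 18 for fatty acid oxidation, a list with no member.

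Between heart and muscle, 34 of the 73 tested oxidative phosphorylation probes were called higher in heart and 0 higher in muscle (median 1.00). With median centring 5 were called (median 0.30), and with the Cy3 level alone 19. The 6 members of the list were between 0.62 and 0.99. In fatty acid oxidation 11 of 18 were called higher in heart (median 1.22), and 5 (median 0.72) with median centring. The citric acid cycle (1 of 12, Mdh1), the mitochondrial ribosome (5 of 37) and dynamics and import (1 of 21) had calls higher in heart and none higher in muscle, beside 9.17% of all probes called higher in heart, and had medians of 0.62, 0.41 and 0.30. With median centring the calls were 0, 1 and 1 and the medians -0.06, -0.16 and -0.13. In the sarcomere list 4 of 11 were higher in muscle (Actn3, Mybph, Myl1 and Tnni1) and 2 in heart (Fhl2 and Tnnt2), none of them a member. Coupling genes were higher in muscle in 3 of 5 (Cacna1s, Camk2g and Jph1) and in heart in 1 (Slc4a3), and the 3 genes of energy supply, Adssl1 and Prkag3 among them, were higher in muscle. Over all probes median centring turned the share of calls that were higher in heart from 60.4% to 44.1%.

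**Figure D3:**
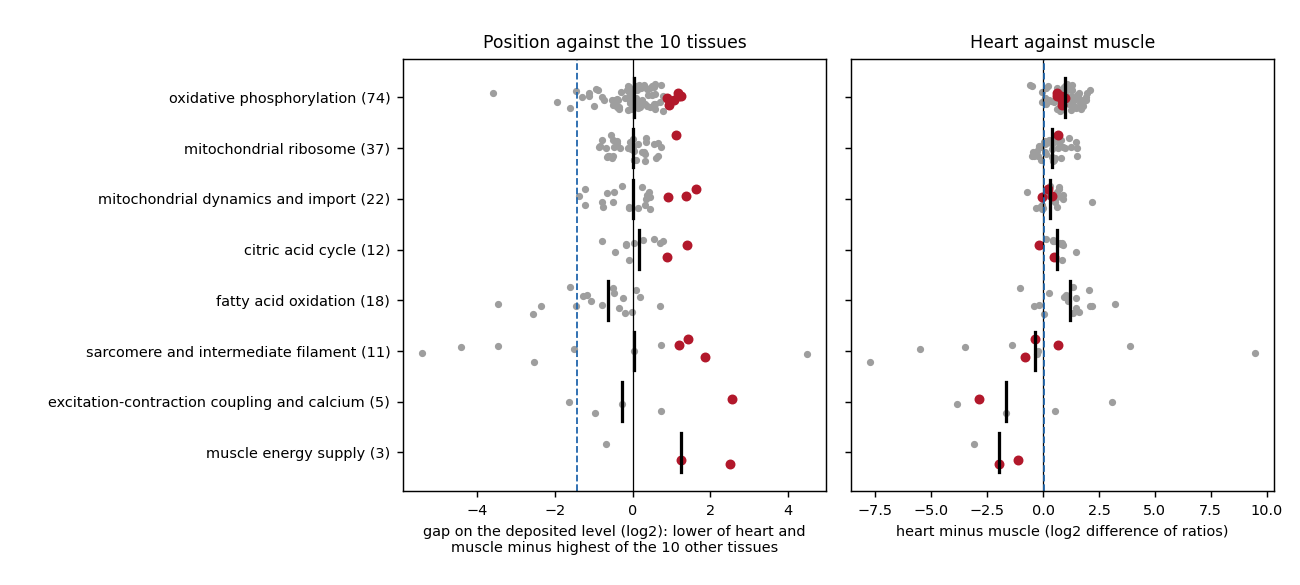
Pathway lists, one point per probe (number of probes in brackets), members in red, black bars the list medians and dashed blue lines the median of all probes. The left panel plots the gap (log2, deposited level), where 32 of the 68 oxidative phosphorylation probes that are not members lie above 0, and the right panel plots heart minus muscle (log2), where its median is 1.00.

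Bone, skin and eyes took no part in the rule, and all 80 members were tested between them. Marker genes of skeletal muscle were measured in all of them. Over the 6 skeletal markers that were tested and are not members, out of 18 listed, the median log2 ratio was 4.29 and 2.60 in bone, 2.33 and 4.38 in skin and 0.90 and 1.12 in eyes, against 4.20 and 4.32 in muscle and -0.25 and -0.14 in heart. Mstn, which restrains muscle growth, was at 4.64 and 3.33 in bone, 2.92 and 6.62 in skin and 2.38 and 2.49 in eyes. The part of attached muscle in the results below was not tested. The mean ratio of bone was above the highest of the 10 tissues in 68 of 80 members, that of skin in 34 and that of eyes in 17. Over all tested probes these shares were 11.0%, 10.8% and 10.2%. Since the rule chose members that are low in the 10 tissues and high in heart and muscle, these counts describe the set and are not tested. Bone reached the lower of heart and muscle in 15 members, skin in 8 and eyes in 3 (65.6%, 62.7% and 60.2% of all tested probes).

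Bone was above skin by call in 29 members and below it in 1. The background was 6.94% of probes higher in bone and 10.2% higher in skin. Against eyes, bone was higher in 47 and lower in 1 (background 12.5% and 16.9%), and skin was higher in 23 and lower in 3 (12% and 14.1%, or 26.2% in either direction). The median differences were 0.81 for bone minus skin, 1.27 for bone minus eyes and 0.50 for skin minus eyes, each against medians of all probes between 0.00 and 0.04 in size. That of skin minus eyes was 0.16 with median centring and 0.26 without skin replicate 2, and that of bone minus skin was 0.49 without skin replicate 1 and 1.23 on both the scanner-processed signals and the deposited table, with 42 members then called higher in bone. Array values did not overlap in 61, 75 and 54 members (62%, 73.3% and 77.6% of all probes). Skin was uneven: 77 of the 80 members were higher in skin replicate 2 than in replicate 1, by a median of 0.52, while over all probes 48.6% were. Without skin replicate 1 the count of members higher in bone than skin was 9, and without replicate 2 it was 41. Those higher in skin than eyes were 28 and 15. Bone and eyes, and skin and eyes, were scanned on different days and cannot be told apart from the day; with the day as a block, bone was above skin in 20 members and below in 3. With median centring the share of calls over all probes that were higher in bone than eyes turned from 42.6% to 29.1%, with a shift of the median difference to -0.11, and that of calls higher in skin than eyes from 46.0% to 28.1%.

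**Figure D4:**
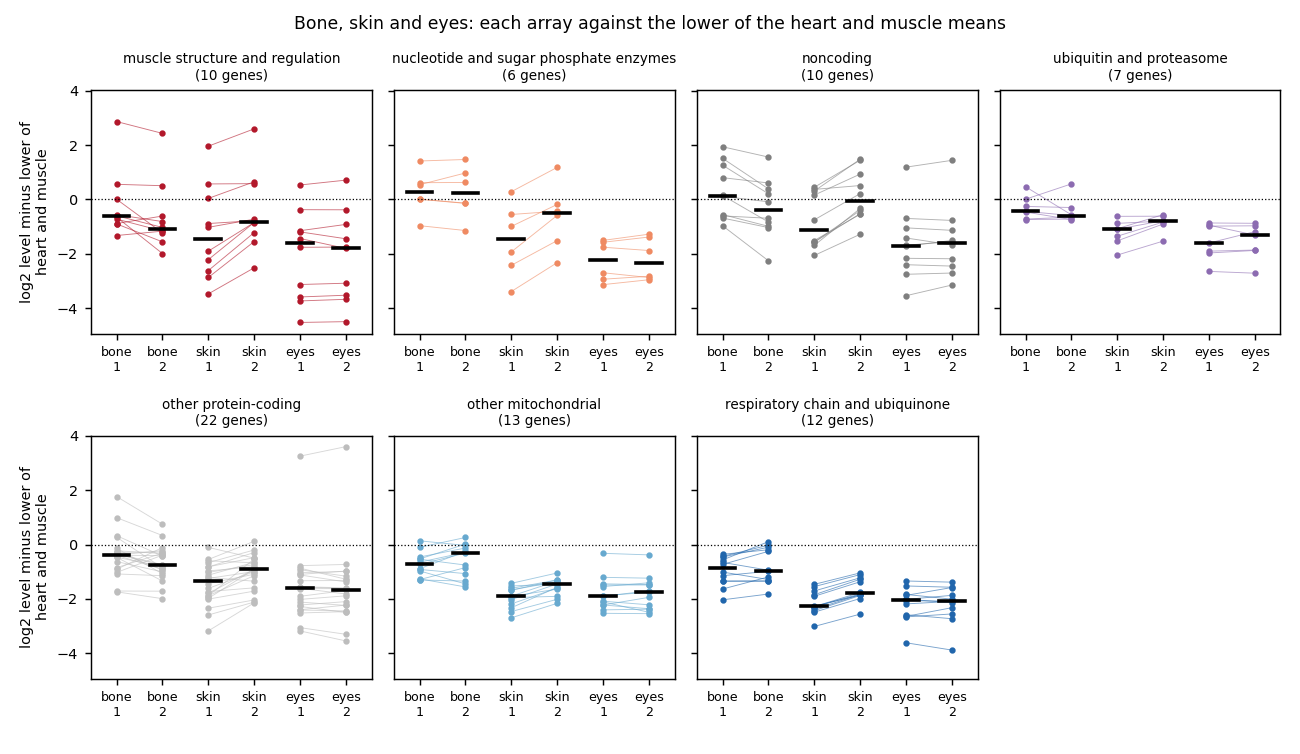
Log2 level of each gene on the 6 arrays of bone, skin and eyes minus the lower of its heart and muscle means, by role; lines join the 2 arrays of a tissue, bars are medians and the dotted line is equality. In skin the respiratory and other mitochondrial medians lie between -2.27 and -1.45 and the median of replicate 2 lies above that of replicate 1 in all roles.

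By role, as a description with no test, 9 of the 10 muscle structure genes had a skin mean above all 10 tissues, as did 8 of the 10 noncoding genes, but 0 of the 12 respiratory genes and 0 of the 13 other mitochondrial genes. In bone the counts were 10 of 10, 8 of 10, 8 of 12 and 10 of 13. The bone arrays differed by role. Replicate 2 minus replicate 1 of bone had medians of -0.43 for muscle structure and -0.41 for noncoding genes. Those of respiratory and other mitochondrial genes were 0.19 and 0.33. The median difference, bone minus skin, was 0.46 for muscle structure (1 of 10 called), 0.11 for noncoding genes (3 called higher and 1 lower), 1.01 for respiratory genes (6 of 12) and 1.10 for other mitochondrial genes (6 of 13), with the calls of muscle structure and both mitochondrial groups all higher in bone. The enzymes of nucleotides and sugar phosphates were called higher in bone than skin in 4 of 6 (median 1.27) and higher in bone than eyes in 6 of 6 (median 2.75). Adsl is one of the 6, and its second probe was at 0.33 in bone, 0.34 in skin and 0.37 in eyes. Between skin and eyes the medians were 1.28 for muscle structure (6 of 10 called higher in skin, 1 in eyes) and 0.07 for respiratory genes (2 of 12).

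Actn2 was at 4.77 and 4.72 in bone, 4.78 and 4.79 in skin and 3.83 and 3.83 in eyes, and its skin arrays were above both muscle arrays. On the Cy3 level alone the order was another, with means of 17.6 in heart, 16.6 in muscle, 16.1 in bone and skin and 13.2 in eyes. Cacna1s was at 4.40 and 3.96 in bone, 3.49 and 4.13 in skin and 2.07 and 2.25 in eyes, in every case above both heart arrays. Its mean Cy3 level was 15.6 in muscle, 13.8 in bone, 12.7 in skin, 10.1 in eyes and 9.48 in heart. Cavin4 was at 3.90 and 4.06 in bone, 2.36 and 3.68 in skin and 0.71 and 0.74 in eyes (bone minus eyes 3.26, SE 0.48, adjusted p = 2.2e-05). Adssl1 was at 4.90 and 4.96 in bone and 3.78 and 4.67 in skin, above both heart arrays, and at 1.92 and 2.11 in eyes (bone minus eyes 2.92, SE 0.22, adjusted p = 4.8e-09).

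The gene 2310002L09Rik was at 6.08 and 5.67 in bone, near its ratio in heart and muscle, and at 3.24 and 4.27 in skin and 3.24 and 2.87 in eyes (bone minus skin 2.12, adjusted p = 7.2e-06). Mettl11b was at 3.03 and 2.01 in bone, while its skin signal was not well above background on either array (bone minus skin 2.53, SE 0.24, adjusted p = 2.5e-07). The ratio is shrunk by the offset added to dim signals. On the normalised Cy3 level, with the lowest detected signal of an array as the floor for skin, bone was at least 9.76-fold higher. Tigar was at 1.28 and 1.29 in bone and -1.76 and -0.85 in skin (2.59, SE 0.34, adjusted p = 1.1e-05). The noncoding RNA 5430431A17Rik was the one member called higher in skin than bone, at 4.32 and 4.47 against 3.35 and 3.26 (bone minus skin -1.09, SE 0.27, adjusted p = 0.0047). It was not called with median centring. Its skin arrays lay close to those of muscle (4.34 and 4.52).

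Among mitochondrial members, Ndufb5 was at 1.93 and 2.29 in bone, 0.09 and 0.57 in skin and 0.33 and 0.30 in eyes, and bone exceeded skin by 1.78 (SE 0.22, adjusted p = 4.9e-06) and eyes by 1.79 (SE 0.22, adjusted p = 1.8e-06). Coq9 was at 2.03 and 2.18 in bone, 0.79 and 1.33 in skin and -0.44 and -0.71 in eyes. Isca1 was at 3.13 and 2.96 in bone, as high as in heart (3.07 and 2.98) and muscle (2.88 and 3.11). With Tuba4a, an alpha-tubulin (3.58 and 2.92 in bone), and Ube2t, a ubiquitin-conjugating enzyme (-1.37 and -0.81), it was one of 3 members whose highest mean ratio was in bone. The bone arrays of Isca1 and Ube2t overlapped those of heart or muscle. On the Cy3 level alone muscle was above bone for Isca1 (15.1 against 14.9) and Ube2t (8.93 against 8.79). Tuba4a was at 17.4 in both tissues.

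Tafa3 (listed as 7530404M11Rik), a secreted protein of the TAFA family, was at 3.91 and 4.26 in eyes, above muscle (2.17 and 2.08), heart (0.66 and 0.65) and every other array. It was the member called higher in eyes than bone (bone minus eyes -3.83, SE 0.34, adjusted p = 3.9e-08), and it led the 3 that were higher in eyes than skin (skin minus eyes -4.63, SE 0.34, adjusted p = 2.7e-09). Rxrg, at 4.93 and 4.56 in eyes and 2.89 and 3.85 in skin, was another (-1.37, SE 0.40, adjusted p = 0.011), and Immp1l, a peptidase of the inner mitochondrial membrane, completed them (-1.10, SE 0.21, adjusted p = 0.00040). Without skin replicate 1, 1 member was called higher in eyes than skin. Rxrg was at 5.46 and 4.81 in bone. The genes of muscle structure with the largest excess of skin over eyes were Cavin4 (2.30), Speg (2.18) and Dusp27 (2.17).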

How the data were processed

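The authors extracted the spots with Agilent's scanner software, and the deposited spot files hold, for either dye, the mean brightness of each spot and its surround as an intensity. The deposited value table gives 25030 probes as a log10 level of Cy3, adjusted by the authors for the deviation of the reference. It chose the members, and the ratios were computed from the spots: normexp background correction (offset 50, which shrinks the ratios of dim probes), loess within each array, log2(Cy3/Cy5). The deposited files also hold other values (flags of detection and outliers), which served as filters. Probes entered the test where Cy3 passed the scanner software's background flag in both replicates of 1 or more tissues (21026 probes, all 80 members among them). Limma 3.58.1 in R 4.3.3 was fitted with 1 coefficient per tissue over 30 arrays (15 residual degrees of freedom). P-values are two-sided and adjusted by Benjamini and Hochberg over all tested probes. There were 4 comparisons. For arrays it is their number, 2 per tissue, that limits the precision. Genes of the sarcomere, coupling and energy lists, the 10 largest gaps, the 8 largest called differences per direction, the 5 smallest, the 3 genes on either side of the threshold, the 4 highest ratios in bone, skin and eyes and members of the pathway lists were named. Further members were named after their values were seen, to complete the role groups. The members and lists were chosen with earlier results of these data known. The fit was tested on simulated data. 1 member counts in the totals but is not reported here by name.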

Additional observations from a re-analysis of the deposited data

How the results depend on the processing

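The members rest on the scale of the deposited level: the same rule on the loess ratios shared 70 of the 80, and with the lower array of heart and of muscle in place of the mean 75. Members higher in muscle than heart numbered between 12 and 26 over the alternatives of scaling, filter and block, and 14 to 20 with 1 array left out. Members higher in heart were 0 with the slide as a random block (consensus correlation 0.692) and 0 to 3 with 1 array left out. For bone against skin, the count higher in bone was 6 when only the 4 arrays of the pair were fitted and 9 to 41 with 1 array left out, and that higher in skin was 0 with median centring, 2 with the slide block, 3 with the scan day as a block and 1 to 3 with 1 array left out. Members higher in skin than eyes were 12 with median centring and 15 to 28 with 1 array left out, and those higher in eyes were 1 to 4. The scan day could not be fitted as a block for the other 3 comparisons. With the replicate number as a block the counts were 1 and 18 (heart and muscle), 28 and 1 (bone and skin), 47 and 1 (bone and eyes) and 23 and 3 (skin and eyes), which changed 1 count by 1. The labels do not pair the arrays, and same-numbered deviations correlated at 0.0757 for heart and muscle. Over all 105 tissue pairs the correlation ran from -0.248 to 0.343 and was over 0.1 in 32.

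Between heart and muscle, some of the named genes changed sign, and not all of them are listed here. With median centring the values were -0.038 for Actn2, -0.43 for Chchd3, -0.10 for D10Ertd322e (Mrpl42), -0.087 for Dld, -0.52 for Isca1, -0.11 for Ndufa8, -0.12 for Ndufv2 and -0.39 for Uqcc. With the Cy3 level alone they were -0.39 for Isca1, 0.083 for Pptc7, -0.10 for Uqcc, -0.064 for Coq5 and -0.015 for Atpaf1. With the processed signals and with the deposited table, Isca1 was at -0.11 and Uqcc at -0.057. With the slide block they were 0.078 for Idh3a, 0.13 for Pptc7 and 0.068 for Timm23. With 1 array left out, Isca1 ranged from -0.079 to 0.14, Pptc7 from -0.085 to 0.082, Timm23 from -0.17 to 0.090 and Uqcc from -0.062 to 0.089. The cause was not tested.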
